A study of Mus musculus with 6 samples.

Results

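The genes described here are 9 genes of the MHC class II route of antigen presentation: H2-Aa, H2-Ab1, H2-Eb1, Cd74, Ciita, H2-DMa, H2-DMb1, H2-DMb2 and Ctss. They were chosen by gene symbol from a table of 23366 genes, and all 9 were found in it. The table came from an RNA-seq study of mouse salivary gland, in which epithelial cells of the submandibular gland were isolated and their RNA was sequenced. The p63 knockout and the p63 wild type had 3 libraries each, all from adult mice aged 12 weeks. The targeted gene, Trp63, encodes p63, which basal cells of many epithelia need to persist. The mouse strain, the knockout allele, any Cre driver or inducing agent, and the number of mice behind each library are not given in the sources used here. Whether replicate libraries came from separate mice is not stated, and p-values therefore measure the spread between libraries, which may be technical.

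MHC class II molecules display peptides from engulfed or endosomal proteins to CD4+ T cells. An alpha and a beta chain pair in the endoplasmic reticulum around the invariant chain, CD74, which fills the peptide groove and steers the complex to endosomes. There cathepsin S cuts the invariant chain down to a short fragment, and the DM heterodimer swaps that fragment for antigenic peptide. Transcription of nearly all of these genes depends on CIITA, a coactivator that does not bind DNA itself and is recruited by the factors RFX, CREB and NF-Y sitting on the X and Y boxes of class II promoters. Dendritic cells, B cells and macrophages make class II molecules constantly, while epithelial cells can be induced to do so by interferon-gamma. In a gland preparation the RNA of these genes can therefore come from leukocytes among the epithelial cells, from epithelial cells themselves, or from both.

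The X and Y boxes can be read directly in the RefSeq promoter windows (build GRCm38.p6), which cover 250 bases before to 50 bases after a transcription start. Windows were found for 6 of the 9 genes, and there was none for H2-Ab1, Cd74 and Ciita. The 130 bases that end just before the start are shown for 4 class II genes, to let their shared boxes be compared, and for Ctss, whose window had neither box. They lie at chr17:34287824-34287953 on the minus strand for H2-Aa, and on the plus strand at chr17:34305737-34305866 for H2-Eb1, chr17:34153061-34153190 for H2-DMb1, chr17:34145119-34145248 for H2-DMb2 and chr3:95526656-95526785 for Ctss. These coordinates belong to the sequences only, because the expression values rest on the build mm9. Capitals mark the searched motifs. TGATTGG is the core of the Y box, to which NF-Y binds. AACNGATGATG is a stretch of the X box and TGACGTCA is the CREB site that forms the second part of the X box in H2-Aa. GAAANNGAAA is a core of interferon response elements.
H2-Aa: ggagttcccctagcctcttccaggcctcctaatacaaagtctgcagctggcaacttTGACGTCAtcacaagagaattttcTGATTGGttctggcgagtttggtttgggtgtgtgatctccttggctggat
H2-Eb1: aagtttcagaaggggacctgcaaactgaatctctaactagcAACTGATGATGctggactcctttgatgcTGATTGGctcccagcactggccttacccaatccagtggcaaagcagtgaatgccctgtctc
H2-DMb1: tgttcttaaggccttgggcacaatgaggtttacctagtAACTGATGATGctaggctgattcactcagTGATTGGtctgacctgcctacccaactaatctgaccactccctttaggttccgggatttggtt
H2-DMb2: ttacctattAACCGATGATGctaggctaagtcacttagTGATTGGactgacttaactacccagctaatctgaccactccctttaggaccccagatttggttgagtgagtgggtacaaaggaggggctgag
Ctss: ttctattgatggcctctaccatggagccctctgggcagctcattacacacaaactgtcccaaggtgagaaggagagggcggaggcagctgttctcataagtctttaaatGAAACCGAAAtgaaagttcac

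The X and Y motifs stood in the same order in the 4 class II promoters. Between the end of the X box stretch and the Y box core lay 17 bases in H2-Eb1 and 18 in both H2-DMb1 and H2-DMb2. H2-Aa held no match to that stretch, and 16 bases lay between the end of its CREB site and the Y box core. The distance in H2-Aa is thus counted from another part of the X box. No motif overlapped another in these windows. The motifs were chosen after these sequences had been read, the X box stretch from the windows of H2-DMb1 and H2-DMb2 and the interferon response core from that of Ctss, and both strands were searched. Of 32851 windows of the same length, 7.82% held the Y box core, 0.0609% the X box stretch and 1.79% the CREB site. The X box stretch and the Y box core occurred together in 7 windows of 5 genes, namely H2-Eb1, H2-DMb1, H2-DMb2, Nubp2 and Spsb3. The last 2 are also on chromosome 17 but are not class II genes. The 2 windows of H2-DMa held none of the 4 motifs. Ctss held the interferon response core, as did 3.44% of windows.

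The libraries were checked before the class II genes were compared. Values are TPM, an abundance corrected for gene length that sums to 1000000 per library, so that levels can be compared between genes but sequencing depth is unknown. Trp63 ranged from 0.816 to 1.76 TPM in the knockout and from 1.85 to 3.68 TPM in wild type. Its difference did not pass limma's test over all genes (log2 fold change -0.74, SE 0.27, adjusted p = 0.27). The gland markers Aqp5, a water channel of acinar cells, and Epcam, an epithelial adhesion protein, were above 100 TPM in every library (lowest 150.3 TPM for Aqp5 and 128.0 TPM for Epcam). Knockout library 3 stood apart, with 10634 genes at 1 TPM or more against 11129 to 11235 in the other libraries. Its 50 most abundant genes took 80.3% of the TPM against 69.2% to 75.9%. Calls of the class II genes are given with and without this library. For other genes, fold changes without it are given for some only.

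H2-Aa, H2-Ab1 and H2-Eb1, which encode class II chains, had lower TPM in every knockout library than in any wild-type library. Their knockout means were 24.3% to 27.3% of the wild-type means. H2-Aa, the alpha chain of the I-A molecule, had 57.7, 20.3 and 28.7 TPM in the knockout (libraries 1, 2 and 3, in this order throughout) and 150.7, 140.9 and 148.0 TPM in the wild type. The wild-type libraries lay close together, and the highest knockout library reached 40.9% of the lowest wild-type library. The mean was 35.6 ± 19.6 TPM against 147 ± 5.05 TPM (SD, n = 3 each). On the log2(TPM + 1) scale, which understates the change of low genes, H2-Aa had a log2 fold change of -2.14 (SE 0.35, limma adjusted p = 0.059) and did not pass the threshold of 0.05.

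H2-Ab1 encodes the beta chain that pairs with H2-Aa. Its level was 31.3, 9.68 and 16.7 TPM in the knockout against 83.0, 60.2 and 68.1 TPM. The beta chain of the second class II molecule, I-E, is encoded by H2-Eb1, at 28.2, 6.92 and 16.7 TPM against 78.9, 54.5 and 67.8 TPM. In both genes the groups did not overlap, knockout library 2 was lowest and knockout library 1 highest among the knockouts. The log2 fold change was -1.95 for H2-Ab1 (SE 0.39, limma adjusted p = 0.077) and -2.07 for H2-Eb1 (SE 0.45, limma adjusted p = 0.092). H2-Ea-ps, the alpha chain gene of I-E that is a pseudogene in the reference mouse, was listed at 0 in all 6 libraries. RNA of an alpha partner for H2-Eb1 was thus not seen, and whether the H2-Eb1 product reached the cell surface was not measured. As a label only, H2-Aa, H2-Ab1 and H2-Eb1 are together called the 3 surface chains.

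Ratios between the chains overlapped between the groups. H2-Aa stood at 1.84, 2.098 and 1.72 times H2-Ab1 in knockout libraries 1, 2 and 3 and at 1.82, 2.34 and 2.17 times H2-Ab1 in wild type. The ratio of H2-Eb1 to H2-Ab1 was 0.715 to 1.002 in the knockout and 0.905 to 0.996 in wild type. Summed over the 3 surface chains, the level was 117, 36.9 and 62.1 TPM in the knockout libraries against 313, 256 and 284 TPM in wild type. The knockout mean of this sum was 25.4% of the wild-type mean.

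Cd74, the invariant chain that escorts the class II molecules, was the most abundant of the 9 genes together with H2-Aa. The knockout libraries had 84.0, 21.2 and 42.4 TPM of it and the wild-type libraries 173.7, 115.3 and 151.6 TPM. The groups did not overlap, but the gap was narrower than for H2-Aa, as knockout library 1 reached 72.8% of wild-type library 2. Its log2 fold change was -1.75 (SE 0.46, limma adjusted p = 0.14). Per H2-Aa transcript, Cd74 measured 1.46, 1.04 and 1.48 in the knockout and 1.15, 0.818 and 1.02 in wild type, with overlapping groups.

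**Figure D1:**
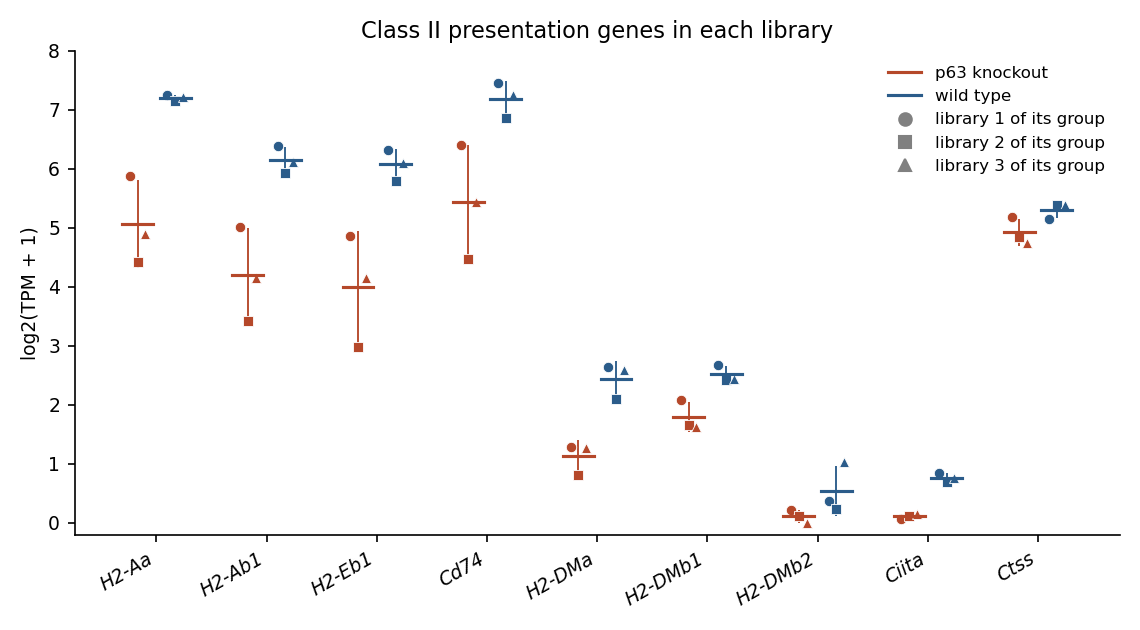
Level of each of the 9 genes on the log2(TPM + 1) scale (vertical axis) in 3 p63 knockout and 3 wild-type libraries. Symbols are libraries 1 to 3 of each group, horizontal lines are means and vertical lines are ±1 SD. Knockout and wild-type symbols are fully apart for 8 genes and overlap for Ctss, and knockout library 2 is lowest for the 3 surface chains and Cd74.

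The peptide exchange genes were expressed at far lower levels than the chains they serve. H2-DMa, the alpha chain of the DM exchange factor, had 1.45, 0.755 and 1.42 TPM in the knockout and 5.24, 3.295 and 5.01 TPM in wild type. The highest knockout value was 43.9% of the lowest wild-type value, and the log2 fold change was -1.32 (SE 0.24, limma adjusted p = 0.068). H2-DMb1, a beta chain of DM, measured 3.25, 2.17 and 2.08 TPM against 5.41, 4.36 and 4.44 TPM. Its groups did not overlap either, with a smaller log2 fold change of -0.73 (SE 0.22, limma adjusted p = 0.20). The ratio of H2-DMa to H2-DMb1 was 0.446, 0.348 and 0.683 in the knockout libraries and 0.968, 0.756 and 1.13 in wild type, so the alpha chain was lower relative to the beta chain in every knockout library.

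H2-DMb2 is a second DM beta chain gene, next to H2-DMb1. The knockout had 0.161, 0.0885 and 0 TPM and the wild type 0.295, 0.174 and 1.04 TPM. The groups were only just apart, and the gene was under the 1 TPM filter of the test over all genes. Wild-type library 3 set most of its difference, which was -0.43 on the log2(TPM + 1) scale with that library and -0.19 without it. The GENCODE M21 transcripts of the 2 genes were 94.4% identical over 1255 aligned bases, with an identical run of 221 bases, so how reads were divided between them is uncertain. Their summed TPM was 3.41, 2.26 and 2.08 in the knockout libraries against 5.71, 4.54 and 5.47 in wild type, a log2 fold change of -0.82.

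Ciita, the coactivator that switches on class II transcription, was below 1 TPM in all 6 libraries and had the largest ratio between the groups. The knockout libraries had 0.0444, 0.0855 and 0.110 TPM and the wild-type libraries 0.793, 0.624 and 0.686 TPM. The highest knockout library reached 17.7% of the lowest wild-type library, and the wild-type mean was 8.76 times the knockout mean in TPM. Its log2 difference was -0.65 with 1 TPM added and -2.17 with 0.1 TPM added. Ciita did not enter the test over all genes because of the filter. In a limma fit without the filter, which called 0.0606% of the genes above 0, its adjusted p was 0.051. The order among the knockout libraries was not that of the surface chains, since library 1 had the least Ciita and the most H2-Aa, H2-Ab1, H2-Eb1 and Cd74. At these levels a library's value may rest on few reads, whose number the table does not give.

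Ctss encodes cathepsin S, the protease that trims the invariant chain, and it was the gene that differed least. Its knockout values were 35.2, 27.6 and 25.9 TPM, and its wild-type values were 34.4, 40.8 and 41.0 TPM. Knockout library 1 was above wild-type library 1, so the groups overlapped. The log2 fold change was -0.39 (SE 0.21, limma adjusted p = 0.39). Per Ctss transcript the 3 surface chains together measured 3.33, 1.34 and 2.404 in the knockout libraries and 9.10, 6.27 and 6.92 in wild type, without overlap.

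Across the 9 genes, 0 passed limma's test over all genes, which called 0.390% of the 11268 genes tested (0.319% as lower). All 9 had negative log2 fold changes, with a median of -1.32, whereas the median over all genes in the table was 0. Over tested genes only, the medians were -1.75 for 7 class II genes and 0.09 for all genes. The knockout libraries were fully below the wild-type libraries for 8 of the 9 genes, and for 10.6% of all genes in the table (13.6% of those above 0 in any library, 15.6% of those tested). In an exact two-sided permutation test of each gene, these 8 had p = 0.1, the smallest value that 3 libraries against 3 allow, and Ctss had p = 0.2. At an unadjusted p under 0.05, limma had 6 of the 7 genes above the filter, all lower, and 10.5% of all genes tested (15.4% in either direction). Taken library by library, the median over the 9 genes lay at -0.78, -1.63 and -1.17 relative to wild type.

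The calls depended on single libraries. Without knockout library 3, limma called H2-Aa (adjusted p = 0.0051), H2-Ab1 (adjusted p = 0.0098), H2-Eb1 (adjusted p = 0.012), Cd74 (adjusted p = 0.028), H2-DMa (adjusted p = 0.0038) and H2-DMb1 (adjusted p = 0.028) as lower. In that fit 45.8% of all genes tested were called, 11.9% lower and 33.9% higher, and the median over all genes tested was 0.26. The fold changes of the 6 genes moved little, to -2.06 for H2-Aa and to -0.64 for H2-DMb1. Without knockout library 1, H2-Aa alone of the 9 passed, at -2.55 (adjusted p = 0.041), in a fit that called 0.163% of all genes tested and 0.117% as lower. With array weights, which let limma give a divergent library less weight, the same 6 genes were called, beside 42.8% of all genes tested (11.9% as lower). Over all alternatives the adjusted p of H2-Aa ranged from 0.00087 to 0.39 and its log2 fold change from -2.55 to -1.82. Ctss was not called under any of them.

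**Figure D2:**
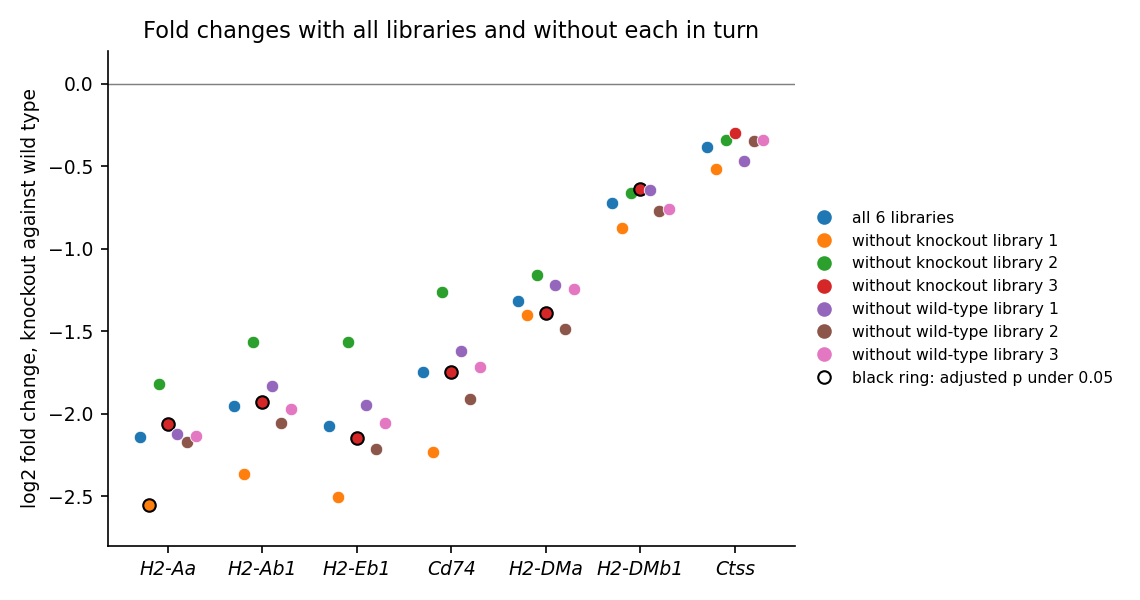
Log2 fold change of knockout against wild type on the log2(TPM + 1) scale (vertical axis) for the 7 genes above the filter, with all 6 libraries and without each library in turn. Black rings mark an adjusted p under 0.05 in limma. All points lie below 0, and rings appear without knockout library 3 for 6 genes and without knockout library 1 for H2-Aa.

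Genes whose products bind class II promoters had log2 fold changes of either sign. Of 7 listed promoter factors, limma called 0 (unadjusted p under 0.05 for 2, and for 15.4% of all genes tested). Of them 3 had negative and 4 positive log2 fold changes, and the median was 0.12. Rfx5, a subunit of the RFX complex that binds the X box, stood at 2.11, 2.72 and 1.796 TPM against 3.35, 4.37 and 3.50 TPM. Its groups did not overlap (log2 fold change -0.57, SE 0.21, limma adjusted p = 0.28). The partner subunit Rfxap lay on the other side, at 14.8, 8.24 and 5.51 TPM in the knockout libraries against 5.04, 4.33 and 4.37 TPM (log2 fold change 0.82, SE 0.34, limma adjusted p = 0.31, and 0.48 without knockout library 1). Without knockout library 3 its log2 fold change was 1.12 (limma adjusted p = 0.0086). The third subunit, Rfxank, overlapped between the groups (log2 fold change -0.15), as did Nfya, Nfyb and Nfyc, the subunits of NF-Y, and Creb1.

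Interferon-gamma induces Ciita through its receptor, the kinases JAK1 and JAK2, and further factors that include IRF1. Of 8 listed genes of this route in the table, 0 passed (2 at an unadjusted p under 0.05, as had 15.4% of all genes tested). Of them 4 had negative and 4 positive log2 fold changes, and the median was 0.03. The receptor chains Ifngr1 and Ifngr2 were at -0.01 and -0.00062. Irf8, a factor of myeloid and B cells, stood at 6.70, 8.54 and 7.10 TPM against 16.7, 16.4 and 17.5 TPM (log2 fold change -1.09, SE 0.20, limma adjusted p = 0.068). Irf1 overlapped, with 8.95, 16.2 and 3.78 TPM in the knockout and 4.93, 6.63 and 4.75 TPM in wild type.

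Of 4 other class II chain genes in the table, all were under the filter. H2-Ob, the beta chain of the DO molecule that restrains DM in B cells, stood at 0.0473, 0 and 0.117 TPM in the knockout and 0.477, 0.307 and 0.488 TPM in wild type. Its partner H2-Oa overlapped, at 0.120, 0.133 and 0.598 TPM against 0.662, 0.521 and 0.466 TPM. H2-Eb2 did not exceed 0.103 TPM in any library.

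Endosomal proteases and processing genes, which prepare peptides and are active in most cells, had log2 fold changes of either sign. Of 10 genes limma called 0 (unadjusted p under 0.05 for 5, and for 15.4% of all genes tested). Of them 6 had negative and 4 positive log2 fold changes, and the median was -0.23. Cst3, the secreted protease inhibitor cystatin C, measured 131, 123 and 80.1 TPM against 210.4, 189 and 184 TPM (log2 fold change -0.83, SE 0.23, limma adjusted p = 0.16). Cathepsin D (Ctsd) was at 517, 487 and 321 TPM against 732, 641 and 698 TPM (log2 fold change -0.67, SE 0.23, limma adjusted p = 0.23). In the other direction, the thiol reductase gene Ifi30, which opens disulphide bonds of antigens, had 146.5, 75.4 and 51.4 TPM in the knockout and 44.0, 35.7 and 49.1 TPM in wild type (log2 fold change 0.94, limma adjusted p = 0.29). Ctsl, a protease that can stand in for cathepsin S in some cells, was high in knockout libraries 1 and 2 only, at 290.3 and 188 TPM, while library 3 at 57.4 TPM lay within the wild-type range of 53.2 to 59.7 TPM. Ifi30 and Ctsl were not among the genes named by rule and were chosen after their values were seen.

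Genes that remove or organise class II at the surface, and costimulatory genes, held none that passed limma's test over all genes with all 6 libraries and no array weights. Of 4 turnover genes in the table, 3 were above the filter and 0 passed (0 at an unadjusted p under 0.05). Cd9, a tetraspanin, was at 362.5 to 573 TPM in the knockout and 426 to 526 TPM in wild type, and its log2 fold change of -0.09 became 0.055 without knockout library 3 and -0.27 without knockout library 1. Cd37, a leukocyte tetraspanin, had a log2 fold change of -0.29 (limma adjusted p = 0.47), and -0.14 without knockout library 2. Of 7 costimulatory genes 3 were above the filter and 0 passed (0 at an unadjusted p under 0.05). Cd83, which marks mature dendritic cells, had 1.53, 0.519 and 0.877 TPM against 1.296, 1.91 and 1.75 TPM, with overlap (log2 fold change -0.45, limma adjusted p = 0.38, and -0.28 without knockout library 2). The ligand gene Icosl was at 0.28 (limma adjusted p = 0.68) with all libraries, at 0.67 without knockout library 3 (limma adjusted p = 0.011) and at 0.067 without knockout library 1 (limma adjusted p = 0.96). With array weights it was at 0.64 (limma adjusted p = 0.023).

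Class I presentation, which shows peptides from inside the cell and is active in nearly all cells, served as a comparison. Of 9 class I genes 0 passed. At an unadjusted p under 0.05 limma had 2 of them, and 15.4% of all genes tested. Log2 fold changes were negative for 6 and positive for 3, with a median of -0.25, where the class II genes had -1.32. Knockout library 3 was the lowest knockout library for each of the 9, so this median rests partly on it. No median was taken without it. The 9 genes summed to 979, 1250 and 536 TPM in the knockout and 1135, 969 and 1077 TPM in wild type. The light chain B2m had 512, 584 and 279.8 TPM in the knockout and 603, 519 and 613 TPM in wild type, and H2-K1 measured 289.5, 468 and 178 TPM against 382, 321 and 333 TPM. For H2-K1 knockout library 2 lay above all wild-type libraries and the other two below them, and for B2m the groups overlapped. Per B2m transcript the 3 class II surface chains together measured 0.229, 0.0631 and 0.222 in the knockout and 0.518, 0.492 and 0.463 in wild type, without overlap. Psmb9, an interferon-induced proteasome subunit, was lower in each knockout library (log2 fold change -0.96, SE 0.30, limma adjusted p = 0.20). So was Nlrc5, the class I counterpart of Ciita (log2 fold change -0.61, SE 0.21, limma adjusted p = 0.24).

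**Figure D3:**
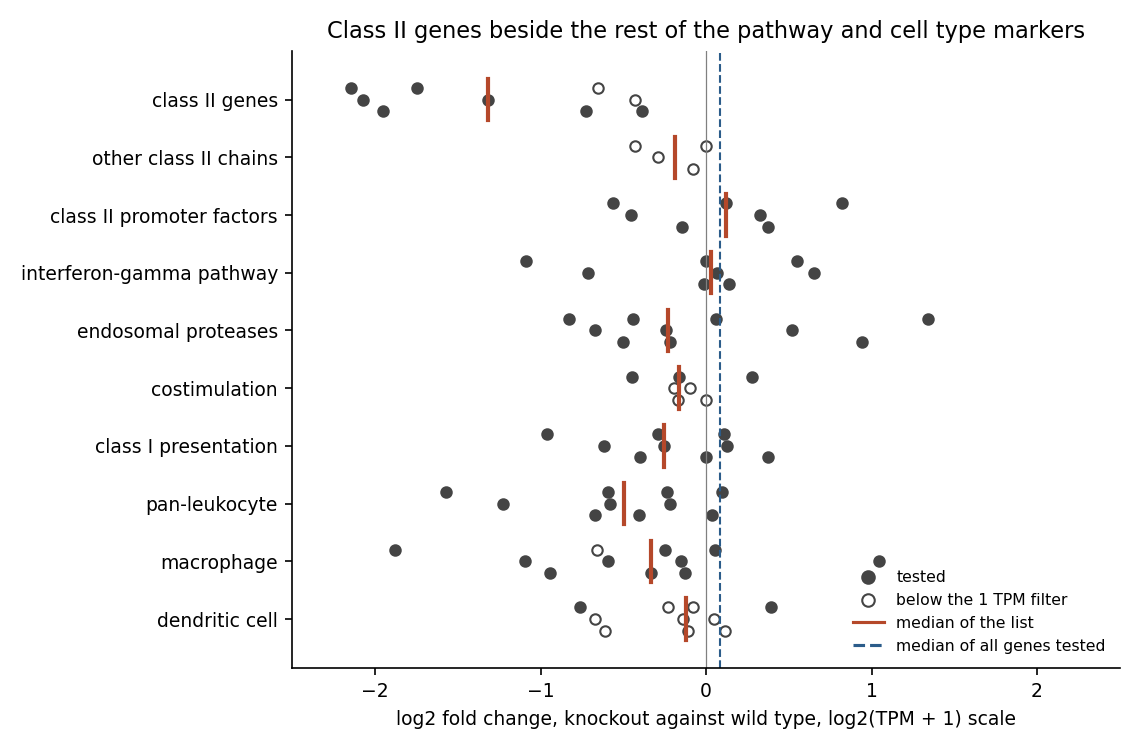
Log2 fold change of knockout against wild type on the log2(TPM + 1) scale (horizontal axis) for every gene of the class II set and of 9 further lists found in the table. Filled points were tested, open points were below the filter, short bars are medians over all listed genes in the table and the dashed line is the median of all genes tested. The class II genes have a median of -1.32, and the medians of the other lists lie between -0.49 and 0.12.

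Markers of the leukocytes that carry class II molecules were followed in the same libraries. In bulk RNA, fewer cells of a type and less RNA per cell cannot be told apart. The 10 pan-leukocyte markers summed to 125, 103 and 114 TPM in the knockout and 149, 152 and 149 TPM in wild type. Lcp1 was the largest part of each sum and overlapped between the groups. It had 58.7, 53.1 and 55.2 TPM in the knockout and 48.0, 53.6 and 54.5 TPM in wild type (log2 fold change 0.10). Of these 10 genes limma called 0 (unadjusted p under 0.05 for 5), 8 had negative log2 fold changes, and 6 were fully lower in the knockout. Over all genes tested, 15.4% had an unadjusted p under 0.05 and 15.6% were fully lower. Cd52, a surface glycoprotein of leukocytes, stood at 6.03, 3.59 and 7.79 TPM against 18.7, 17.7 and 19.4 TPM (log2 fold change -1.57, SE 0.28, limma adjusted p = 0.065). Coro1a, a leukocyte actin regulator, was at 2.45, 2.70 and 4.61 TPM against 8.99, 9.71 and 7.64 TPM (log2 fold change -1.23, SE 0.26, limma adjusted p = 0.088). The common leukocyte antigen Ptprc had 1.60, 1.39 and 1.44 TPM against 2.13, 3.001 and 3.045 TPM. Lcp1 and Ptprc were chosen after their values were seen.

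Of 11 macrophage markers measured, 9 had negative and 2 positive log2 fold changes, and 4 were fully lower in the knockout. Over all genes in the table, 10.6% were fully lower. The markers summed to 248, 215 and 172 TPM in the knockout and 288, 285 and 277 TPM in wild type. Mertk, 1 of the 2 positive genes, had 26.5, 21.8 and 4.36 TPM against 6.16, 5.51 and 7.23 TPM (log2 fold change 1.04, limma adjusted p = 0.40). Of the 10 markers above the filter 0 passed. At an unadjusted p under 0.05 limma had 3 of them, and 15.4% of all genes tested. Lyz2, the lysozyme of myeloid cells, measured 44.5, 48.3 and 38.3 TPM against 87.6, 99.6 and 95.5 TPM (log2 fold change -1.10, SE 0.19, limma adjusted p = 0.059). Aif1, a cytoskeletal protein of macrophages, had 0.144, 0.397 and 2.87 TPM against 6.62, 6.17 and 4.65 TPM (log2 fold change -1.88, SE 0.44, limma adjusted p = 0.11, and -2.42 without knockout library 3). Csf1r, the receptor for the macrophage growth factor CSF1, had 6.71, 5.15 and 6.71 TPM against 14.8, 10.3 and 13.6 TPM (log2 fold change -0.94, SE 0.24, limma adjusted p = 0.12). The complement genes C1qa, C1qb and C1qc, made chiefly by macrophages, summed to 103, 107 and 91.2 TPM in the knockout and 124, 119 and 110.5 TPM in wild type. The knockout mean of that sum was 85.0% of the wild-type mean. C1qa itself measured 29.5, 35.3 and 30.1 TPM against 33.9, 36.4 and 33.4 TPM, with overlap. Mertk, Csf1r and the C1q genes were chosen after their values were seen. Relative to Csf1r the 3 class II surface chains measured 17.5, 7.16 and 9.25 in the knockout and 21.2, 24.9 and 20.9 in wild type, without overlap.

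Relative to these markers the class II chains differed by an amount that depended on the marker. Ratios were taken for some markers only, and Coro1a and Aif1, which were named by rule, were given none. The 3 surface chains measured 1.14, 0.345 and 0.681 times the summed C1q genes in the knockout libraries and 2.51, 2.14 and 2.57 times in wild type. Relative to the summed pan-leukocyte markers they stood at 0.934, 0.358 and 0.544 in the knockout and at 2.103, 1.68 and 1.90 in wild type. In both cases the groups did not overlap. Lcp1 was the largest part of the leukocyte sum. Relative to Cd52 they measured 19.5, 10.3 and 7.98 in the knockout and 16.8, 14.5 and 14.6 in wild type, and the groups overlapped. Relative to Lyz2 the groups overlapped too, at 2.64, 0.764 and 1.62 in the knockout against 3.57, 2.57 and 2.97. Without knockout library 3, limma called Cd52, Coro1a, Lyz2, Aif1, Cd209a, Irf8, Psmb9, Cst3, Ctsd and Krt19 as lower and Rfxap and Icosl as higher. That fit called 45.8% of all genes tested, 11.9% as lower and 33.9% as higher. All of these listed genes were also called with array weights, beside 42.8% of all genes tested. Lyz2 was also called with median-of-ratios scaling. The part of leukocyte content in the class II differences was not tested.

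Dendritic cell markers were scarce, and 8 of 10 were under the filter. Of the 10, 7 had negative and 3 positive log2 fold changes, and 2 were fully lower in the knockout. Over all genes in the table, 10.6% were fully lower. The 10 markers summed to 5.25, 5.97 and 8.36 TPM in the knockout and 9.12, 7.59 and 7.58 TPM in wild type, with overlap. Clec10a, 1 of the 3 positive genes, was the most abundant marker in every library and so weighed most in these sums. Of the 2 genes tested 0 passed (1 at an unadjusted p under 0.05, as had 15.4% of all genes tested). Cd209a, a lectin of monocyte-derived dendritic cells, had 0.426, 0.141 and 1.58 TPM against 2.26, 1.29 and 1.76 TPM (log2 fold change -0.76, limma adjusted p = 0.31, and -1.10 without knockout library 3). Clec10a, a lectin of dendritic cells and macrophages, was at 3.20, 4.17 and 5.01 TPM against 3.32, 3.23 and 2.17 TPM (log2 fold change 0.39, limma adjusted p = 0.43, and 0.25 without wild-type library 3). The integrin gene Itgax, read as an example after its values were seen, measured 0.251, 0.121 and 0.389 TPM against 0.892, 1.39 and 0.526 TPM.

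Most lymphocyte markers were under the filter. Pax5, the factor that sets B cell identity, was listed at 0 in all 6 libraries. Igj, the joining chain of plasma cells, was the only B cell marker above the filter, with 31.8, 19.4 and 6.49 TPM in the knockout and 77.8, 43.8 and 20.2 TPM in wild type (log2 fold change -1.30, SE 0.63, limma adjusted p = 0.36). It was -0.71 without knockout library 3 and -0.85 without wild-type library 1. The 7 B cell genes in the table summed to 6.87 to 32.5 TPM in the knockout and 21.5 to 79.2 TPM in wild type. All 8 T cell markers were under the filter and summed to 0.840 to 1.38 TPM in the knockout and 1.81 to 4.28 TPM in wild type.

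**Figure D4:**
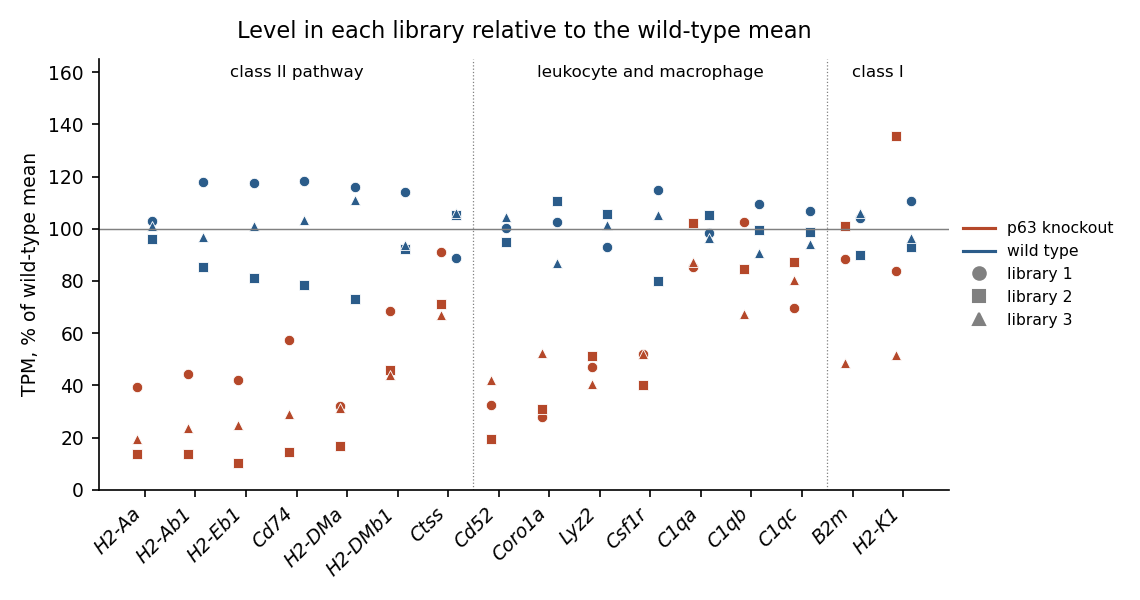
TPM of 7 class II genes, 7 leukocyte and macrophage markers and 2 class I genes in each library as a percentage of the wild-type mean of that gene (vertical axis). Symbols are libraries 1 to 3 of each group. Knockout values of H2-Aa lie at 39.3%, 13.9% and 19.6%, while those of C1qa and B2m reach into the wild-type range and those of H2-K1 lie on both sides of it.

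Of the 10 gland epithelium markers 9 were tested, and limma called 1 as lower, where it called 0.319% of all genes tested as lower. That gene was Egf, a product of the granular convoluted tubule. It fell to 3843, 1450 and 2355 TPM in knockout libraries 1, 2 and 3 from 13193, 12118 and 11697 TPM in wild type (log2 fold change -2.38, SE 0.34, adjusted p = 0.044, over 14 alternatives 0.00068 to 0.36, under 0.05 in 5). The order of the knockout libraries was that of H2-Aa, with library 1 highest and library 2 lowest. Krt19, a keratin of ducts, had 2.85, 1.27 and 3.995 TPM against 10.2, 11.6 and 7.71 TPM (log2 fold change -1.61, limma adjusted p = 0.085). Of the 10 markers 6 had negative and 4 positive log2 fold changes, with a median of -0.09. Krt18, 1 of the 4 positive genes, had 907, 1059 and 272 TPM against 411, 379 and 368 TPM (log2 fold change 0.73, limma adjusted p = 0.45). Its groups overlapped, and it was chosen after its values were seen.

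The genes whose pattern over the 6 libraries was closest to the class II genes were Itm2a, Matn2, Moxd1, Col17a1 and Emp1. Closeness was the root mean square difference between centred log2(TPM + 1) values and the mean centred profile of the 7 class II genes above the filter. It ranged from 0.15 for Itm2a to 0.16 for Emp1, while the class II genes themselves lay between 0.25 for H2-DMa and 0.62 for Ctss. Itm2a, a membrane protein, had 7.04, 1.96 and 2.78 TPM in the knockout and 13.6, 9.83 and 10.7 TPM in wild type. Col17a1, a collagen of hemidesmosomes, was at 1.95, 0.589 and 1.39 TPM against 5.40, 3.54 and 4.41 TPM. The choice by profile fixes their direction and library order, so no test is given for them.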

How the data were processed

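The study sequenced RNA of mouse submandibular gland epithelial cells from 3 p63 knockout and 3 wild-type libraries. Its table holds TPM, computed by the authors from read counts with a correction for library total and for gene length (per the labels). The submitters' processing notes list the genome build mm9 and the tools TopHat2 2.1.1, featureCounts 1.5.1, Bowtie2 2.2.6 and DESeq2 1.20.0. Annotation, strand setting and the handling of reads that match several genes are not given in the sources used here. Depth cannot be recovered from TPM, and no counting error is given.

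Groups came from the genotype label, and libraries were numbered in accession order. Values were taken as log2(TPM + 1). The 11268 genes that reached 1 TPM in 3 or more libraries entered limma 3.58.1 in R 4.3.3 (mean-variance trend, two-sided, Benjamini-Hochberg over these genes, threshold 0.05). The procedure was tested on simulated data with independent noise, of the same spread for a gene in all 6 libraries. That test therefore did not cover a divergent library such as knockout library 3. Exact permutation tests used SciPy 1.17.1, the transcript alignment Biopython 1.88 and figures matplotlib 3.10.9.

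The 9 genes, the lists and the tests were chosen with earlier results of these data known. Named genes were the 9 genes, any gene of a list that passed and otherwise the 2 of each list with the lowest p, and the 5 nearest profiles with a settled symbol. The lists covered other class II chains, promoter factors, interferon-gamma signalling, endosomal processing, surface turnover, costimulation, class I presentation, and markers of leukocytes, dendritic cells, macrophages, B cells, T cells and gland epithelium. Listed genes without a row in the table were not analysed here. Results of 2 listed genes are not reported here. Alternatives were scaling by median of ratios, quantile normalization, a pseudocount of 0.1 TPM, filters of 0 and 5 TPM, limma without trend or with array weights, a block for neighbouring library index numbers, the sum of H2-DMb1 and H2-DMb2, and leaving out each library.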

Additional observations from a re-analysis of the deposited data

How the results depend on the processing

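Depth is unknown, so the precision of values under 1 TPM, such as those of Ciita and H2-DMb2, cannot be given. All 9 class II genes kept a negative log2 fold change under every alternative in which they were measured. The number with groups fully apart was 8, beside 10.6% of all genes in the table fully lower. It was 7 with quantile normalization and 9 with median-of-ratios scaling. It was also 9 without knockout library 1 or wild-type library 1, where 3 libraries against 2 separate more easily. Shares over all genes were not taken for these alternatives. With all libraries, the number of class II genes called was 0 without array weights and 6 with them. It was 0 to 6 when 1 library was left out, the highest without knockout library 3. Their median log2 fold change was -1.32, and -1.84 with a pseudocount of 0.1 TPM. Over all genes, limma called 44 (8 higher, 36 lower). It called 25 with a pseudocount of 0.1 TPM, 11 without a filter, 29 with the 5 TPM filter and 4822 with array weights (3477 higher, 1345 lower). When 1 library was left out the number ran from 0 to 5110. Leaving out knockout library 1 gave 18, knockout library 2 gave 16 and knockout library 3 gave 5110 (3787 higher, 1323 lower). Leaving out wild-type library 1, 2 or 3 gave 0, with 756, 896 and 902 genes at an unadjusted limma p under 0.05. Cd9 went from -0.09 to 0.055 without knockout library 3 and ranged from -0.27 (without knockout library 1) to 0.055 over the single-library omissions.

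The library index numbers lie in neighbouring pairs across the groups (14 and 15, 19 and 20, 29 and 30), and the number that opens each sample title falls into the same pairs, but no label says that the samples are paired. With these pairs as a replicate block, limma called 31 genes and 0 of the class II genes, and the adjusted p of H2-Aa was 0.054. Deviations from the group means correlated at 0.17, 0.23 and 0.08 within the pairs, and each library correlated best with its own neighbour, which is a hint from the data and not from the design.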
